A study of Mus musculus with 13 samples.

Results

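The lysosomal cathepsins and legumain are the peptidases that break down protein inside the acid compartments of a cell. The 10 genes described here (Ctsa, Ctsb, Ctsc, Ctsd, Ctsf, Ctsh, Ctsl, Ctss, Ctsz and Lgmn) were taken by symbol from the 14518 gene entries of the deposited table, and all 10 were found and passed the filter on low values. They were measured by RNA sequencing in microglia, the resident macrophages of the brain, sorted from adult C57BL/6 mice of 2 months as CD11b-positive cells with intermediate CD45. In the RSD group (n = 7) the mice had been put through repeated social defeat, a stress by exposure to an aggressor, for 6 cycles, and cells were taken 24 days after the last cycle. The control group (CON, n = 6) had no defeat. Setting RSD against CON asks what remains different in microglia weeks after the stress.

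Cathepsins are made as inactive precursors, tagged with mannose 6-phosphate in the Golgi, carried to endosomes and activated there by acid and by other peptidases. Their classes differ in the catalytic residue. Ctsd encodes an aspartic endopeptidase, Lgmn a cysteine peptidase that cuts after asparagine and trims several cathepsin precursors, and Ctsa a serine carboxypeptidase. The other members are papain-like cysteine peptidases. In microglia and other phagocytes these enzymes digest engulfed material, process antigen and mature endosomal receptors, and transcription factors of the TFEB family raise many lysosomal genes together through an E-box in their promoters.

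The promoters of 4 members are shown because they stand for the patterns that follow. They are Ctsd, the member with the most reads, and Ctsa, which was low in library RSD 8, as were Ctsd, Ctsf and Ctsz. The others are Ctsl, which had the largest difference between RSD and CON, and Ctsc, which was highest in library CON 18. Each runs 5′ to 3′ from 250 bases before to 50 bases after a RefSeq start, which need not be the outermost start of the gene (RefSeq, GRCm38.p6, the assembly also called mm10), and capitals mark a match to a searched motif.
Ctsd, chr7:142387778-142388077, minus strand: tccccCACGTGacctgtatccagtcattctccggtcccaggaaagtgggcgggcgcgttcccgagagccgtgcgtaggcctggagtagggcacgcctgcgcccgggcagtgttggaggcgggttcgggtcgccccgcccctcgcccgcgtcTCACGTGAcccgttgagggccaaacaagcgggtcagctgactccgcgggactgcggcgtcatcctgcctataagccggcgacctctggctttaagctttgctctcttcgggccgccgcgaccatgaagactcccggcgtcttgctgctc
Ctsa, chr2:164833523-164833822, plus strand: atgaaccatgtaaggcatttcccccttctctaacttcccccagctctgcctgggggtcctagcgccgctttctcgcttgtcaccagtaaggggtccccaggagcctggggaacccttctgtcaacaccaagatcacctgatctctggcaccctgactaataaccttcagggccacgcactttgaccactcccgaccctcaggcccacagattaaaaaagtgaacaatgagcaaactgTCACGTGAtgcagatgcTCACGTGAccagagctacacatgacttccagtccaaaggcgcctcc
Ctsl, chr13:64370471-64370770, minus strand: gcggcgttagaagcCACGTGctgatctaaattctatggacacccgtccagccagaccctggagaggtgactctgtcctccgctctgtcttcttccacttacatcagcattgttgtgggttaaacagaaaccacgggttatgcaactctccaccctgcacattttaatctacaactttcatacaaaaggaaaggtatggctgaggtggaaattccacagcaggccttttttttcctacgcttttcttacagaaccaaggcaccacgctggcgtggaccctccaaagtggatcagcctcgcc
Ctsc, chr7:88277835-88278134, plus strand: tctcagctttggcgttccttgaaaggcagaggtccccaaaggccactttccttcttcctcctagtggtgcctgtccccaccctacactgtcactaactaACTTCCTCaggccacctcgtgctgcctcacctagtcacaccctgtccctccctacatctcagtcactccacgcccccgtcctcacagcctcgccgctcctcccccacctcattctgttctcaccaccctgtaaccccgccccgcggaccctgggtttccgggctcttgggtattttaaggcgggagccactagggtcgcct

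The E-box core CACGTG was found in 5 of the 10 RefSeq promoters of 8 members (Ctsa, Ctsd, Ctsf, Ctsl and Lgmn), where 7.17% of 32544 distinct mouse promoter windows of the same length hold it. Its extended form TCACGTGA, searched here as a TFEB E-box, was found in the promoters of Ctsa and Ctsd, against 0.983% of all windows. In Ctsd it begins at position -99, counted from 1 at the RefSeq start of the window with negative positions before it. Both Ctsa matches, at positions -13 and 5, lie in a window around an alternative RefSeq start, 900 bases downstream of the gene's annotated 5′ end. The other Ctsa window, at that end (chr2:164832622-164832921), holds 0 matches to any searched motif. Likewise the Lgmn E-box lies in a window whose start is 721 bases downstream of the gene's 5′ end, and the Lgmn window nearer to it (chr12:102439679-102439978) holds 0. The starts used for Ctsl and Ctsd are 370 and 211 bases downstream of the annotated 5′ end. A longer form, the CLEAR palindrome (TCACGTGA with a G before and a C after it), was in 0 of the 10 and in 0.329% of all windows. GAGGAAGT, a site of the myeloid factor PU.1, was in Ctsc (position -151) and Ctss (position -2), against 3.11% of all windows, and a composite ETS-IRF element, GGAA and GAAA parted by any pair of bases, was in 0 of the 10 and in 2.73% of all. Both strands were searched, every TCACGTGA also counts as a CACGTG, and a match describes letters, not binding.

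Together the members took 0.876% to 1.03% of a library's reads in RSD (median 0.995%) and 0.948% to 1.16% in CON (median 1.02%). The groups overlapped, and the highest values were those of CON 1 (1.16%) and CON 18 (1.12%). Levels per kilobase of coding transcript fell into a high and a low tier. Ctsd stood at 17535 ± 1829 normalized reads per kb (SD over all 13 libraries), Ctss at 16505 ± 1314 and Lgmn at 12071 ± 970. The pair Ctsd and Ctss did not differ beyond its spread, and its order turned when all annotated exons were taken as the length (15864 ± 1654 for Ctsd, 16505 ± 1314 for Ctss).

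The lower tier began far below Lgmn, with Ctsb at 2234 ± 254 normalized reads per kb and Ctsz at 2138 ± 234, which overlapped. Ctsh (1686 ± 282), Ctsa (1334 ± 150) and Ctsc (741 ± 325) followed, and Ctsl (525 ± 96.1) and Ctsf (509 ± 93.2) came last with overlapping levels. With all annotated exons as the length, Ctsz (2138 ± 234) stood above Ctsb (1751 ± 199), while Ctsh fell to 606 ± 101 and Ctsf to 199.8 ± 36.6 per kb, so the places within this tier depend on the gene model. Ctsd, Ctss and Lgmn led with either length.

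**Figure D1:**
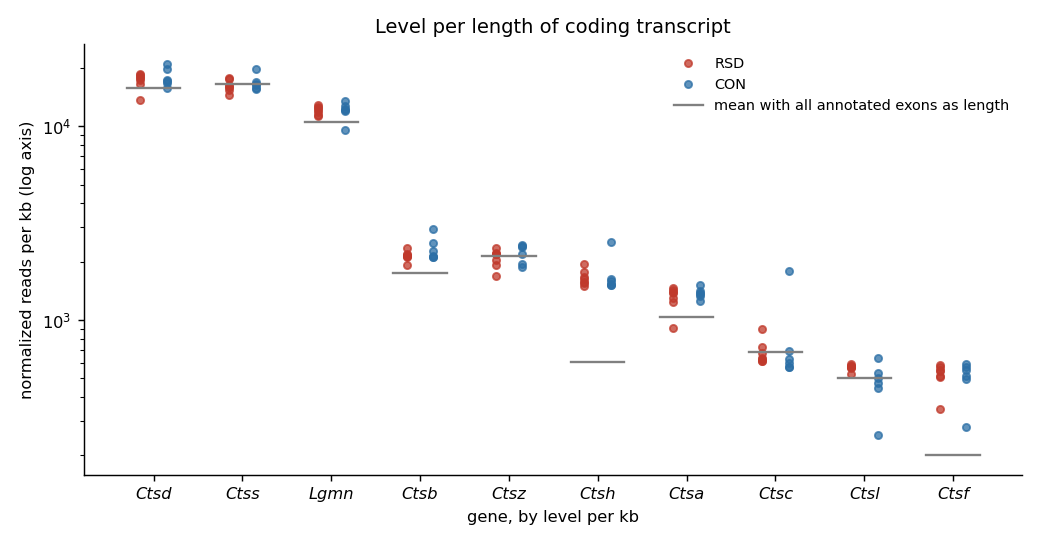
Normalized reads per kb of coding transcript (log axis) for each member, with 1 point per library in RSD (left of each pair, 7 libraries) and CON (right, 6 libraries); grey bars give the mean over the 13 libraries with all annotated exons as the length. Ctsd, Ctss and Lgmn stand above the other members in every library, and the length chosen matters most for Ctsh and Ctsf.

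The libraries held 9.76 M to 12.3 M recovered reads each. Microglial markers (10 genes, Csf1r, P2ry12 and Sall1 among them) summed to 305624 to 323602 normalized reads in RSD. They summed to 310503 to 324844 in 5 CON libraries and to 201252 in CON 18. In CON 18 they ran from 0.29 times the median of the other libraries (Sall1) to 0.90 (Olfml3) and 1.13 times (Fcrls). In RSD 8 they ran from 0.54 times (Tmem119) to 1.42 times (Gpr34), which the sum does not show. Markers of border-associated macrophages (8 of 10 genes in the table) summed to 4916 to 8581 in RSD, 7369 to 8391 in the same 5 CON libraries and 33192 in CON 18, where Mrc1 stood at 12409, Ms4a7 at 1839 and Pf4 at 219. Most of these sums came from Stab1, with medians of 7788 in RSD and 8018 in CON. In CON 18 Stab1 stood at 18400, or 2.35 times the median of the other libraries, and Mrc1 at 45.2 times it. Monocyte markers (9 of 10 in the table) summed to 846 to 1141 in RSD, 821 to 1037 in those 5 CON libraries and 9669 in CON 18, with 8416 of it from Lyz2. Of the 9 monocyte genes, 7 were above the median of the other libraries in CON 18, with Itgal at 59.4 times it (771 normalized reads), Lyz2 at 17.9 times, Fn1 at 3.17 times, Vcan at 2.54 times and Ccr2 at 1.06 times, and Plac8 and Chil3 were below it. RSD 8 also stood apart, with levels that followed transcript GC content. Neutrophil markers (8 of 10 in the table) summed to 32.4 to 1211 normalized reads in RSD (median 153) and 15.5 to 745 in CON (median 128), with RSD 2 highest and RSD 8 at 939. In RSD 8, S100a8, S100a9, Ngp and Ltf stood at 8.06, 10.3, 6.08 and 12.1 times the median of the other libraries. All 5 neutrophil genes tested were higher in RSD (median log2 difference 0.60) and limma called 0, with 0 at an unadjusted p under 0.05. Without CON 18 and RSD 8, 3 of these genes were higher and 2 lower, with a median of 0.46. The part of these transcripts in the members' values was not tested. In sorted bulk RNA, fewer cells of a type and less RNA per cell cannot be told apart. Whether the samples came from different animals is not in the labels, so the p-values cover the spread among these samples, which may be technical.

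None of the 10 genes passed the test for a difference between RSD and CON. Of 12496 genes tested, limma called 0 (0%) at an adjusted p of 0.05, and 4% had an unadjusted p under 0.05. Among the 10 members limma called 0, with 0 at an unadjusted p under 0.05, and edgeR, DESeq2 and limma-voom with sample quality weights also called 0 members, with 0 at an unadjusted p under 0.05 in each. Of all genes edgeR called 0% (4.81% unadjusted), DESeq2 0.016% (4.62% unadjusted) and the weighted limma-voom fit 0% (9.02% unadjusted). Ctsl, Ctsf and Lgmn had a positive difference and the other 7 a negative one, with a median log2 difference of -0.06 over the members and 0.01 over all genes tested. No member had groups that did not overlap, where 0.032% of genes did so in each direction. Without CON 18 and RSD 8 the members' split was 6 positive and 4 negative, with a median of 0.01, and 1 member, Ctsl, had an unadjusted p under 0.05, where 4.88% of genes did.

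Ctsl encodes an endopeptidase that cuts the invariant chain and extracellular matrix proteins and is secreted by stimulated macrophages. Its gene lies at chr13:64359337-64370890 (mm10, minus strand). It stood at 3236 to 3657 normalized reads in RSD (median 3522) and 1568 to 3921 in CON (median 3000). Every RSD library was above CON 5, 17, 18 and 19, while CON 1, at 3921, was above all of RSD and CON 4, at 3274, was above RSD 7. The groups overlapped, and the RSD libraries kept within a narrower range. The means were 3505 ± 132 in RSD (SD, n = 7) and 2920 ± 776 in CON (SD, n = 6). The log2 difference was 0.31 ± 0.15 (SE), with 7 of 7 RSD libraries above the CON mean on the log2 scale, and an adjusted p of 0.821 in limma (unadjusted 0.0531).

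The size of the Ctsl difference depended on the libraries taken. Without CON 18, where Ctsl was at 44.8% of the median of the other libraries, the log2 difference was 0.15 ± 0.08 (limma adjusted p = 0.745). Within sample numbers 1 to 8 it was 0.03 ± 0.12, with RSD 2, 7 and 8 at 3657, 3236 and 3522 normalized reads and CON 1, 4 and 5 at 3921, 3274 and 3075. These 3 and 3 libraries overlapped. In this range 1 member, Ctsf, had an unadjusted p under 0.05, as did 22.2% of genes. Within sample numbers 10 to 19, RSD 10, 11, 12 and 13 stood at 3513, 3479, 3569 and 3560 normalized reads and CON 17, 18 and 19 at 2925, 1568 and 2757. All RSD libraries were above all CON libraries there, as they were for 4.33% of genes, and the log2 difference was 0.60 ± 0.20 (limma adjusted p = 0.726; unadjusted 0.0198, with 5.41% of genes under 0.05). With CON 18 left out of this range, a set chosen after the values were seen, it was 0.31 ± 0.05 and limma called it at an adjusted p of 0.00711. The 4 RSD libraries of this range varied by 1.19% (CV) in Ctsl, less than the counting error of 1.61% to 1.77% of their reads. That fit set 4 RSD libraries against 2 CON libraries and called 11 of 12792 genes (0.086%), with 5 members and 9.49% of genes at an unadjusted p under 0.05. In that set Ctsa, Ctsf, Ctsl, Ctsz and Lgmn were wholly higher in RSD, as were 8.93% of genes, and no member was wholly lower, against 9.76%. The ranges follow the numbers in the sample titles, and the labels do not call them batches. A test of whether the RSD-minus-CON difference changed between the ranges gave a log2 change of 0.57 ± 0.24 for Ctsl (limma adjusted p = 0.205).

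Ctsl shares 1742 exonic bases with Gm47123 on the opposite strand and 395 with the processed pseudogene Gm49230 on its own strand. Without the strand setting of the authors' counting, reads of Gm47123 and of Ctsl in the shared bases cannot be told apart. For Gm49230, on the same strand as Ctsl, that setting would not part them.

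**Figure D2:**
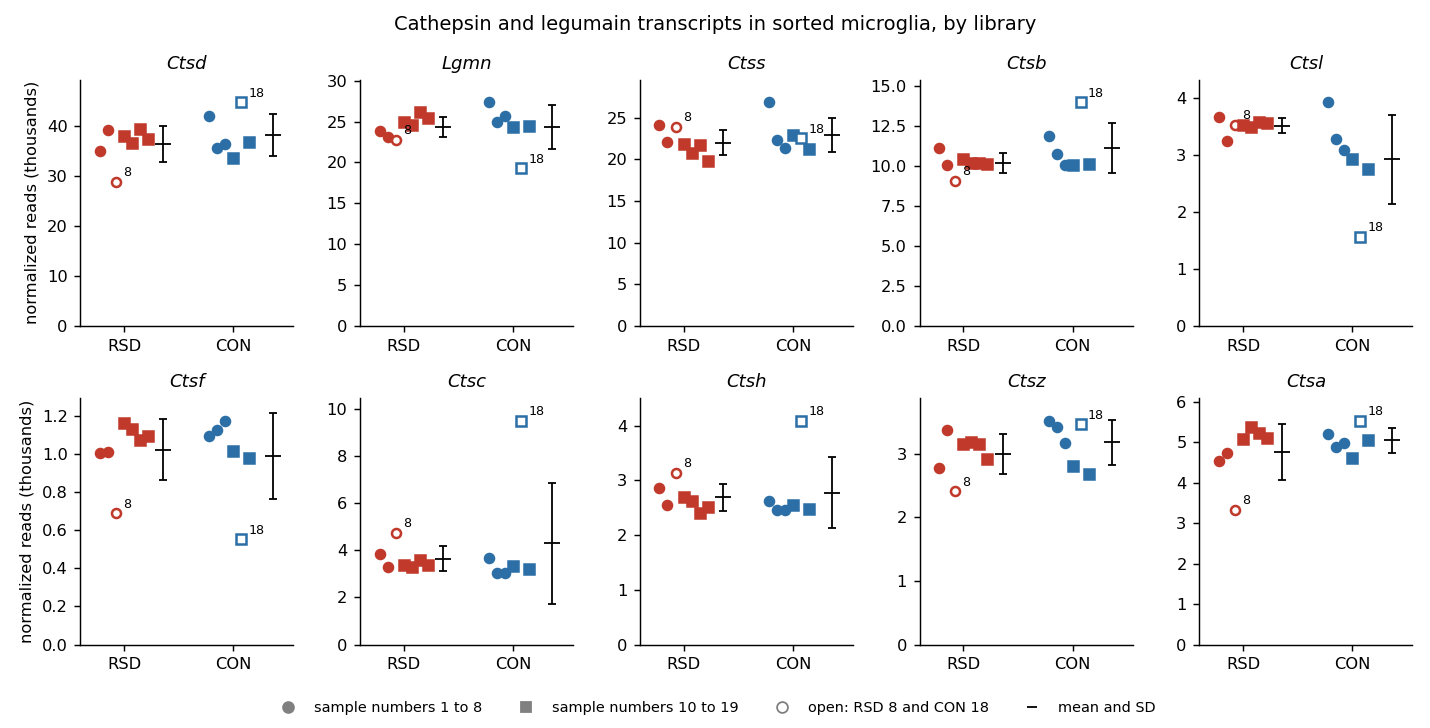
Normalized reads (axes from 0) of each member in the RSD libraries (left) and CON libraries (right), with the mean and SD beside each group; circles are sample numbers 1 to 8, squares 10 to 19, and open symbols mark RSD 8 and CON 18. Ctsl lies at 3236 to 3657 in RSD and at 1568 in CON 18, where Ctsc, at 9520, is above every other library.

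Ctsd is the main aspartic endopeptidase of the lysosome, and its loss causes a neuronal storage disease. Its gene lies at chr7:142375911-142388038 (minus strand). It stood at 28915.5 to 39477 normalized reads in RSD (median 37560) and 33572 to 44860 in CON (median 36685). The lowest library was RSD 8 and the highest CON 18, and the rest of both groups overlapped. RSD minus CON was -0.07 ± 0.09 on the log2 scale (limma adjusted p = 0.849), and 0.03 ± 0.05 without RSD 8 and CON 18. Ctsd shares 808 exonic bases with Gm49369, a protein-coding gene model on the same strand.

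Legumain activates other peptidases. Its gene Lgmn lies at chr12:102394084-102439813 (minus strand). It stood at 22768 to 26116 normalized reads in RSD (median 24548) and 19280 to 27375 in CON (median 24692), with CON 18 lowest and CON 1 highest. The RSD libraries lay inside the CON range. The log2 difference of 0.01 ± 0.08 was the smallest of the members (limma adjusted p = 0.979), and without CON 18 it was -0.06.

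Ctss, which cuts the invariant chain in antigen-presenting cells and stays active at neutral pH, was near its usual level in CON 18. Its gene lies at chr3:95526786-95556403 (plus strand). It stood at 19757 to 24076 normalized reads in RSD (median 21787) and 21211 to 26861 in CON (median 22428). RSD 13 was lowest, CON 1 was highest, and CON 18 was at 103% of the median of the other libraries. On the log2 scale the difference was -0.05 ± 0.07 (limma adjusted p = 0.852).

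Ctsb, an endopeptidase that also trims dipeptides from protein ends, lies at chr14:63122462-63145923 (plus strand). It stood at 9056 to 11130 normalized reads in RSD (median 10145) and 10018 to 13968 in CON (median 10410). The groups overlapped, with CON 18 highest and RSD 8 lowest. This gave a log2 difference of -0.12 ± 0.08 (limma adjusted p = 0.821), and -0.05 without CON 18. Ctsb shares 774 exonic bases with Fdft1 on the opposite strand.

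Ctsf, a cathepsin with a long cystatin-like propeptide, lies at chr19:4855130-4860918 (plus strand) and had the lowest read count of the members. It stood at 688 to 1161 normalized reads in RSD (median 1074) and 552 to 1174 in CON (median 1053). The lowest library of each group was RSD 8 or CON 18, and the rest overlapped. RSD minus CON was 0.07 ± 0.16 on the log2 scale (limma adjusted p = 0.915), and -0.09 without CON 18.

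The exopeptidases take amino acids or dipeptides from the ends of proteins. Ctsc, a dipeptidyl peptidase that activates the serine proteases of immune granules, lies at chr7:88278085-88310888 (plus strand). It stood at 3279 to 4755 normalized reads in RSD (median 3373) and 3050 to 9520 in CON (median 3264). Apart from RSD 8 (4755) and CON 18 (9520), the libraries lay between 3050 and 3854 and overlapped. The log2 difference was -0.11 ± 0.23 with all libraries and 0.15 ± 0.09 without CON 18, and limma called neither (adjusted p = 0.912 and 0.745).

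Ctsh, mainly an aminopeptidase, lies at chr9:90054152-90076089 (plus strand). It stood at 2411 to 3137 normalized reads in RSD (median 2628) and 2458 to 4089 in CON (median 2512). RSD 8 and CON 18 were the highest of their groups, as for Ctsc. The log2 difference was -0.03 ± 0.11 (limma adjusted p = 0.957), and 0.09 without CON 18.

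Ctsz, a carboxypeptidase also called cathepsin X, lies at chr2:174427493-174439039 (minus strand) and stood at 2413 to 3371 normalized reads in RSD (median 3150) and 2687 to 3522 in CON (median 3293). RSD 8 was the lowest library and the groups overlapped. The log2 difference was -0.08 ± 0.09 (limma adjusted p = 0.831). Ctsa, the carboxypeptidase that shields neuraminidase and beta-galactosidase in a complex, lies at chr2:164832873-164841032 (plus strand). It stood at 3336 to 5385 normalized reads in RSD (median 5081) and 4620 to 5541 in CON (median 5024). RSD 8 was again lowest, and the log2 difference was -0.09 ± 0.10 (limma adjusted p = 0.829). Ctsa shares 495 exonic bases with Pltp and 324 with Neurl2, and Ctsz shares 10 with Nelfcd, each on the opposite strand.

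RSD 8 or CON 18 was the highest or lowest of the 13 libraries for every member except Ctss. Without these 2 libraries the highest library was 1.18 times the lowest for Ctsb and 1.42 times for Ctsl, with the other 8 members between these. In CON 18, Ctsc stood at 2.85 times the median of the other 12 libraries, Ctsh at 160% and Ctsb at 138% of it. In the same library Ctsl stood at 44.8%, Ctsf at 51.0% and Lgmn at 78.0% of that median. So 4 of the 10 members were past 0.5 on the log2 scale in CON 18, and 32.2% of all genes were. In RSD 8, 3 of the 10 members and 37.7% of all genes were past it. The markers of border-associated macrophages and Lyz2 given above were high in CON 18, and their part in its values was not tested.

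In CON 1 all 10 members were above the median of the other libraries, by a median of 0.16 on the log2 scale, while 49.0% of all genes were above it. In CON 17 and CON 19 only 1 of 10 was above, with medians of -0.06 and -0.07. The controls thus held both the highest summed level (128098 normalized reads in CON 1) and the lowest outside RSD 8 (108116 in CON 17), and RSD outside RSD 8 lay between them, at 111328 to 116524.

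**Figure D3:**
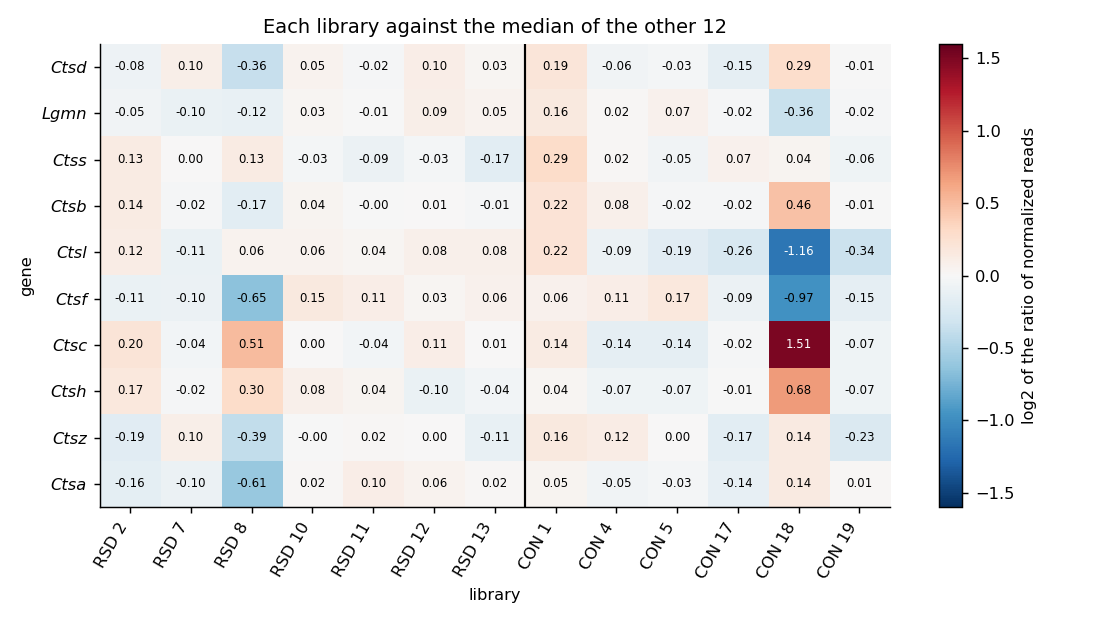
Log2 ratio of normalized reads in each library to the median of the other 12 libraries, for each member, with RSD libraries left of the line and CON libraries right of it. CON 18 holds the largest values, from -1.16 for Ctsl to 1.51 for Ctsc, and RSD 8 the next largest, from -0.65 for Ctsf to 0.51 for Ctsc.

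The levels of the members in RSD 8 tended to fall with transcript GC content. The longest annotated transcript of each gene has a GC content of 57.3% for Ctsz, 56.6% for Ctsf, 55.9% for Ctsd and 54.5% for Ctsa, against 41.1% for Ctsc, 44.3% for Ctsl and 46.0% for Ctss. In RSD 8, Ctsf, Ctsa, Ctsz and Ctsd stood at 63.6%, 65.7%, 76.4% and 77.7% of the median of the other libraries. Ctsc stood at 142%, Ctss at 109% and Ctsl at 104% of it, and Ctsh, with a GC content of 50.1%, at 123%. The order was not strict, as Ctsb, with a GC content of 49.2%, stood at 89.0%. Lgmn, with a GC content of 51.8%, stood at 92.1%. The Spearman correlation across the 10 members between GC content and this ratio was -0.83 in RSD 8 and -0.84 in RSD 2, where the ratios were smaller. Across 11847 and 11852 genes of any function it was -0.72 in RSD 8 and -0.56 in RSD 2, the same direction as across the members. In the other 11 libraries it lay between -0.08 and 0.40 across genes. In CON 18 it was -0.21 across the members and -0.08 across genes. The members were ordered the other way in CON 5 (0.76 across members, 0.23 across genes) and CON 4 (0.66 across members, 0.40 across genes), both controls of numbers 1 to 8. In the remaining 8 libraries it lay between -0.44 and 0.45 across members. These values describe single libraries, and genes are not independent replicates.

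**Figure D4:**
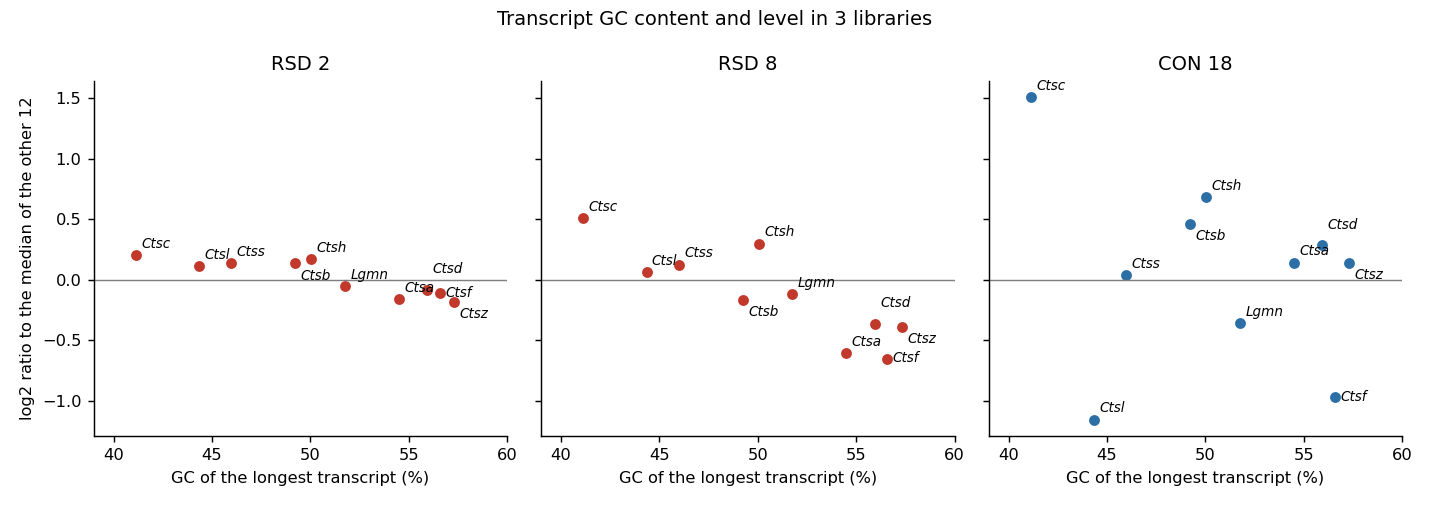
GC content of the longest transcript (%) against the log2 ratio of each member to the median of the other 12 libraries, in RSD 2, RSD 8 and CON 18. The ratio falls with GC content in RSD 2 and RSD 8 (Spearman -0.84 and -0.83 over 10 genes) and shows no such order in CON 18 (-0.21).

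The sign of several differences turned between the sample number ranges. For Ctsf, RSD 2, 7 and 8 were at 1003, 1011 and 688 normalized reads and CON 1, 4 and 5 at 1091, 1127 and 1174, so all RSD libraries were below all CON libraries in numbers 1 to 8. In numbers 10 to 19, RSD 10 to 13 were at 1161, 1128, 1074 and 1091 and CON 17, 18 and 19 at 1015, 552 and 978, with all RSD libraries above. Lgmn did the same, with RSD 2, 7 and 8 at 23809, 23058 and 22768 against CON 1, 4 and 5 at 27375, 24918 and 25687. In numbers 10 to 19 Lgmn stood at 24956, 24548, 26116 and 25375 in RSD 10 to 13 and at 24325, 19280 and 24466 in CON 17, 18 and 19. Ctsa was also wholly lower in numbers 1 to 8, where no member was wholly higher. Of all genes, 14.3% were wholly lower in RSD in numbers 1 to 8 and 16.2% wholly higher, and in numbers 10 to 19 it was 4.26% lower and 4.33% higher.

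No member passed a test of that change. The log2 change of the RSD-minus-CON difference, numbers 10 to 19 minus numbers 1 to 8, was 0.79 ± 0.27 for Ctsf (limma adjusted p = 0.164), 0.32 ± 0.14 for Lgmn (adjusted p = 0.198) and 0.31 ± 0.16 for Ctsa (adjusted p = 0.265). It was -0.73 ± 0.46 for Ctsc and -0.38 ± 0.21 for Ctsh. Limma called 0 of 12496 genes (0%), with 21.7% at an unadjusted p under 0.05, and 3 of the 10 members were among those; edgeR also called 0 genes and 0 members, with 21.7% and 3 members under that limit. Without RSD 8 and CON 18 limma called 463 of 12535 genes (3.69%) and 0 members. In that fit 5 members and 20% of genes had an unadjusted p under 0.05. The smallest adjusted p of a member was 0.0575, for Ctsf. There the log2 change was -0.07 ± 0.11 for Ctsc and -0.08 ± 0.09 for Ctsh. It was 0.33 ± 0.10 for Ctsf, 0.20 ± 0.07 for Lgmn and 0.22 ± 0.08 for Ctsa. RSD 2 and RSD 8, the libraries with the most negative GC correlations, both lie in numbers 1 to 8 and CON 18 lies in numbers 10 to 19, and their part in the change was not tested beyond these fits.

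**Figure D5:**
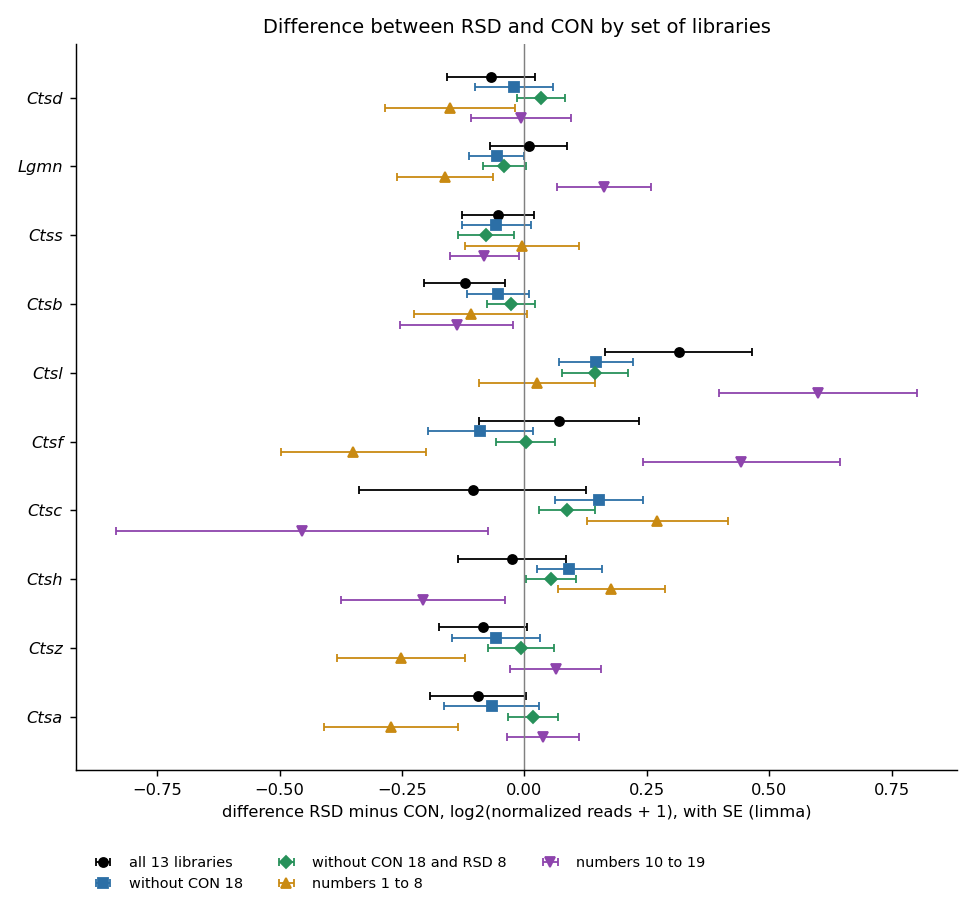
Difference RSD minus CON on the log2(normalized reads + 1) scale with its SE from limma, for each member and 5 sets of libraries. Ctsl is positive in all 5 sets (0.03 to 0.60). Ctsa, Ctsc, Ctsf, Ctsh, Ctsz and Lgmn change sign between numbers 1 to 8 and numbers 10 to 19. With CON 18 left out of numbers 10 to 19, a set not drawn, Ctsc and Ctsh were positive there (0.061 and 0.027), as in numbers 1 to 8. Ctsa, Ctsf, Ctsz and Lgmn still changed sign.

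Other genes of the cathepsin system were read from lists. None of their members was called by limma with all libraries, and medians are set against 0.01 over all genes tested, 51.4% of which were higher in RSD. With all libraries, 4% of all genes tested had an unadjusted p under 0.05 in limma. Of 9 tested genes among the other lysosomal peptidases, 4 were higher and 5 lower, with a median of -0.05 and 1 at an unadjusted p under 0.05. Ctsk, the collagen-cutting cathepsin of osteoclasts, averaged 30.8 ± 11.9 normalized reads in the RSD libraries and 19.4 ± 9.84 in the CON libraries. Its log2 difference was 0.73 ± 0.34 (limma adjusted p = 0.821). RSD 8 held the most Ctsk (53.2) and CON 18 the least (5.63). The difference was 0.44 without CON 18 and 0.30 without both libraries. The aspartic peptidase gene Ctse stood at 22.4 ± 7.10 in RSD and 78.6 ± 128 in CON, where CON 18 held 339 and the other controls 17.3 to 37.4. Dpp7, a dipeptidyl peptidase, was at -0.18 ± 0.14, and at -0.04 without CON 18, which held 308 reads of it.

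The list of cathepsin inhibitors held cystatins, stefins and serpins, among others. Which peptidases each of them inhibits was not tested, and need not include the members. Of the 7 genes that passed the filter, 4 were higher and 3 lower, with a median of 0.13 and 0 at an unadjusted p under 0.05. The split stayed 4 and 3 without CON 18 (median 0.04) and without CON 18 and RSD 8 (median 0.01). In each of these fits limma gave 1 gene an unadjusted p under 0.05. Of all genes tested, 4.92% were under that limit without CON 18 and 4.88% without both libraries. The serpin genes Serpinb6a and Serpinb9 had log2 differences of -0.23 ± 0.13 and 0.13 ± 0.11, and Cstb, stefin B, -0.14 ± 0.15. CON 18 held the most Serpinb6a and Cstb (108 and 142 normalized reads).

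The sorting and delivery list held genes of the mannose 6-phosphate tag, its receptors, other sorting receptors, adaptors and retromer. Of its 17 genes, 5 were higher and 12 lower, with a median of -0.07 and 0 at an unadjusted p under 0.05. Gnptg, a subunit of the enzyme that makes the tag, was at -0.18 ± 0.10, Vps35 of the retromer at 0.16 ± 0.10 and the sorting adaptor gene Gga3 at -0.09 ± 0.08. Without RSD 8, which held 2475 normalized reads of Vps35 and 801 of Gga3, the split was 8 higher and 9 lower with a median of -0.00356. With CON 18 also left out, 6 were higher and 11 lower, with a median of -0.01 and 1 at an unadjusted p under 0.05 in limma. In this fit 4.88% of all genes tested were under that limit.

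Regulators of lysosomal genes, with TFEB relatives and the mTORC1 pathway, had 7 of 20 higher and 13 lower, a median of -0.07 and 0 at an unadjusted p under 0.05. Rragc, a small GTPase that brings mTORC1 to the lysosome, stood at 0.12 ± 0.06, the lysosomal calcium channel gene Mcoln1 at -0.21 ± 0.12 and the kinase gene Mtor at -0.15 ± 0.08. RSD 8 was lowest in Mcoln1 and Mtor (351 and 1036 normalized reads) and CON 18 highest (720 and 1659). Without RSD 8 the median of the list was -0.00725, and without CON 18 it was -0.08. With both libraries left out, 6 were higher and 14 lower, with a median of -0.03 and 2 at an unadjusted p under 0.05 in limma. Of all genes, 4.88% were under that limit in this fit.

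Known substrates and partners had 2 of 16 higher and 14 lower, a median of -0.18 and 1 at an unadjusted p under 0.05. Glb1, the beta-galactosidase that Ctsa shields, averaged 433 ± 27.9 normalized reads in the RSD libraries and 510 ± 85.0 in the CON libraries, and its log2 difference of -0.22 ± 0.09 was one that limma did not call (adjusted p = 0.821). Its RSD libraries were at 382 to 460 and its CON libraries at 452 to 675, with CON 18 highest, and without CON 18 the difference was -0.14. Tlr9, an endosomal DNA receptor that cathepsins and legumain cut into its active form, was at -0.21 ± 0.10, and at -0.11 without CON 18 and RSD 8. H2-DMa, which loads peptide on MHC class II, was at -0.39 ± 0.19, with 243 reads in RSD 8 and 931 in CON 18. Without both libraries the list had 5 higher and 11 lower, with a median of -0.02.

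Lysosomal hydrolases and membrane proteins had 5 of 24 higher and 19 lower, a median of -0.06 and 0 at an unadjusted p under 0.05. The scavenger protein gene Cd68 was at -0.20 ± 0.11 and the proton pump subunit gene Atp6ap1 at -0.18 ± 0.10. RSD 8 was the lowest RSD library in both (1859 and 1150 normalized reads). Without RSD 8 and CON 18 the list had 10 higher and 14 lower, with a median of -0.00730.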

How the data were processed

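Per the labels' protocols, microglia were enriched on Percoll, sorted by CD11b and CD45, and their RNA was made into libraries with the Ovation SoLo system and rRNA depletion. The submitters' processing notes name STAR, mm10 and DESeq2, per the labels; no source used here gives their versions, the read counter or its strand setting. The deposited signal is a read count per gene divided by 1 size factor per sample. In each sample 100% of values were whole multiples of 1 step within 0.01 reads, so whole reads were recovered, and edgeR called 0 genes on them.

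Genes were kept by filterByExpr (minimum count 10, minimum total 15), which left 12496. RSD was compared with CON by limma (3.58.1, R 4.3.3) on log2(value + 1), with trend and robust variance and Benjamini-Hochberg adjustment over all of them; fold changes on this scale understate those of low genes. The step was tested on simulated data. edgeR (4.0.16), DESeq2 (1.42.0), limma-voom with sample quality weights, which gives less weight to libraries that stand apart, other scalings, pseudocounts, filters and sets of libraries were alternatives. Gene models and GC content came from GENCODE M21 (GRCm38), with GC for 94.9% of tested genes.

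The members and gene lists were chosen with earlier results of these data known. All 10 members and up to 3 genes of smallest p per list were named; 1 gene that this rule picks is not reported here. RefSeq promoters were found for 8 of 10 members. At 9.76 M to 12.3 M reads per library, the lowest member value was 490 reads. Over all libraries of a group each member's spread was at least 2.16 times its median counting error, but within a number range it could be as small as 0.693 times (Ctsl in RSD 10 to 13). Fits with CON 18 or RSD 8 left out are given beside many, not all, of the results they touch.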

Additional observations from a re-analysis of the deposited data

Results flagged for a closer look

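In 9 of 20 member groups a single library lay far from the rest of its own group, measured as its gap to the nearest library over the group's range; chance gives about 1 in 20 groups, and the members share their libraries. RSD 8 was such a library among the RSD samples for 4 genes, with 3336 normalized reads of Ctsa, 28915.5 of Ctsd, 688 of Ctsf and 4755 of Ctsc. CON 18 was such a library among the controls for 3 genes, with 9520 normalized reads of Ctsc, 4089 of Ctsh and 552 of Ctsf. Ctsl in RSD 7 (3236) was below a tight RSD group, and Ctss in CON 1 (26861) was above the other controls. The marker sums of CON 18 and the GC trend and neutrophil transcripts of RSD 8 are given in the report. Their part in these levels was not tested. The same count of groups was not made over all genes, so these flags do not set the members apart from other genes. Over all genes, the median absolute log2 ratio to the median of the other libraries was 0.39 in RSD 8 and 0.30 in CON 18. Over the members it was 0.33 and 0.41. In the remaining libraries it was 0.096 to 0.17 over all genes.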

How the results depend on the processing

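Across 330 recomputed values (each member's difference and its change between number ranges under each alternative), 296 kept their direction and side of the threshold, 33 turned direction, 1 newly passed and 0 lost a call; all that turned were uncalled in both fits. The number of genes called was 0 in limma, 2 in DESeq2, and 11, with 1 member (Ctsl, 0.31), in numbers 10 to 19 with CON 18 left out, which was chosen after seeing the data. For the change between ranges it was 463 without CON 18 and RSD 8; the cause was not tested. Lgmn turned to -0.0042 in edgeR and -0.00041 in DESeq2. In limma-voom with sample quality weights the turned values were Ctsa 0.016, Ctsc 0.063, Ctsd 0.023, Ctsf -0.0044, Ctsh 0.046 and Lgmn -0.040. In numbers 1 to 8 they were Ctsc 0.27, Ctsf -0.35, Ctsh 0.18 and Lgmn -0.16, and in numbers 10 to 19 Ctsa 0.037 and Ctsz 0.064. With CON 18 left out of numbers 10 to 19 they were Ctsa 0.10, Ctsb 0.019, Ctsc 0.061, Ctsd 0.11, Ctsh 0.027 and Ctsz 0.18. Without RSD 8 and CON 18 they were Ctsa 0.017, Ctsc 0.086, Ctsd 0.034, Ctsh 0.054 and Lgmn -0.041, and 0.054 for the change between ranges of Ctsb. Leaving out 1 library at a time gave -0.18 to 0.15 for Ctsc, -0.090 to 0.16 for Ctsf, -0.064 to 0.092 for Ctsh, -0.057 to 0.044 for Lgmn and 0.15 to 0.41 for Ctsl. Ctsc, Ctsf, Ctsh and Lgmn each turned without CON 18, and Lgmn also without RSD 12 (-0.0082) and RSD 13 (-0.0013). The change between ranges of Ctsb ran from -0.10 to 0.13. The numbers in the titles differ between all samples. No paired analysis was possible because no number is shared by RSD and CON.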

Other observations

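As a share of the summed reads of the 10 genes, Ctsd made up 28.2% to 34.9% in RSD and 31.1% to 35.8% in CON. Lgmn made up 20.5% to 22.8% in RSD and 15.4% to 23.0% in CON, and Ctss 17.7% to 23.3% in RSD and 18.0% to 21.2% in CON. The share of Ctsl was 2.87% to 3.44% in RSD and 1.25% to 3.06% in CON. Ctsc took 4.64% in RSD 8 and 7.59% in CON 18, and the groups overlapped for every member.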
